A study of Homo sapiens with 6 samples.

Results

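Simple keratins, EPCAM, claudins and tight junction genes were followed through 6 RNA libraries of tumour tissue grown from DMS114 cells, which are a line of human small cell lung carcinoma, in a model where tumour invades the sciatic nerve. The list named 10 genes: EPCAM, KRT7, KRT8, KRT18, KRT19, CLDN3, CLDN4, CLDN7, OCLN and TJP1. They were taken from a table of raw read counts by their symbols, and 8 of the 10 matched among 17081 genes. KRT7 and KRT19 matched no row under these or older symbols and were not analysed here. The lowest row total of the table was 1 read, so a gene without any read has no row. Whether KRT7 and KRT19 had no reads or were left out for another reason was not tested. Of the 8, 5 (EPCAM, KRT18, CLDN3, OCLN and TJP1) passed the filter on low counts and were among the 13382 genes tested, and 3 (KRT8, CLDN4 and CLDN7) fell below it.

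There were 2 groups of 3 libraries, proximal and distal, named after the invaded region the tissue came from. All 6 came from 1 cell line with no other treatment, genotype or time given, and the sources used here do not give the host species, the animals or the days. The labels do not tie the libraries of a group to different animals. The p-values therefore cover only the spread between these samples, and that spread may be technical. Total counts ran from 16171106 in distal 3 to 26116191 in proximal 1.

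Cells of a simple epithelium, such as the lining of the airway, build their cytoskeleton from pairs of a type II and a type I keratin, of which KRT8 and KRT18 are the most widespread. Their neighbouring membranes are sealed by tight junctions, in which claudins and occludin span the membrane and scaffold proteins such as ZO-1, the product of TJP1, tie them to actin. Small cell lung cancers are carcinomas with neuroendocrine features, and keratins and EPCAM serve pathologists as markers of their epithelial origin. Loss of these genes with gain of vimentin is the textbook sign of a shift towards a mesenchymal state.

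The epithelial programme was read in part only. The scaffold gene TJP1 and the occludin gene had the most reads (28796 and 9526 over all libraries), EPCAM, CLDN3 and KRT18 fewer (1789, 505 and 366), and CLDN4, CLDN7 and KRT8 hardly any (34, 8 and 7). Per kilobase of exon (union of the gene's exons in GENCODE release 29), the mean level over the 6 libraries was 22.7 CPM (reads relative to the library's total, scaled between libraries by TMM) for TJP1, 10.99 for OCLN, 7.07 for EPCAM, 2.95 for CLDN3, 1.40 for KRT18, 0.0584 for CLDN4, 0.0306 for CLDN7 and 0.0117 for KRT8. The ranges over libraries did not meet between TJP1 (19.7 to 27.9 CPM per kilobase) and OCLN (9.02 to 14.2), or between CLDN3 (2.36 to 3.46) and KRT18 (0.942 to 2.13). They did meet between OCLN and EPCAM (3.24 to 13.9), whose order was the other way round in distal 3, and between EPCAM and CLDN3. The order of CLDN4, CLDN7 and KRT8 changed from library to library and rests on too few reads to be read. Among the 16800 genes of the table with a length, the mean level per kilobase of TJP1 was at percentile 83.0, that of OCLN at 67.9, EPCAM at 58.2, CLDN3 at 44.7 and KRT18 at 36.7, while CLDN4 was at 15.9 and CLDN7 and KRT8 at 12 and 7.03. The sources used here do not name the authors' annotation, so these lengths are approximate for the exons they counted.

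**Figure D1:**
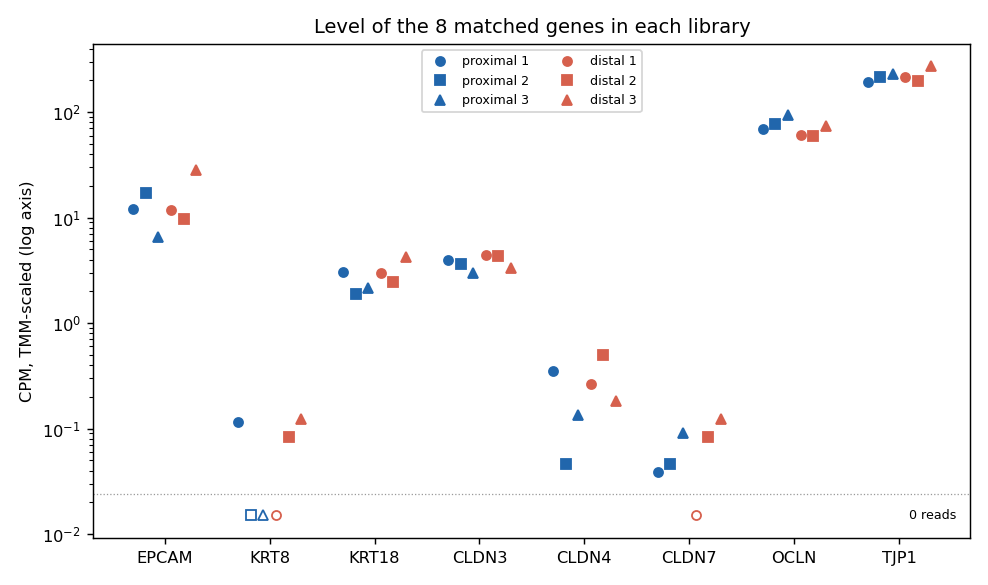
CPM (TMM-scaled, log axis) of the 8 matched genes, 1 symbol per library, blue for proximal and red for distal; open symbols under the dotted line are libraries with 0 reads. TJP1 and OCLN lie at 59.04 CPM or above in every library, KRT8, CLDN4 and CLDN7 below 0.5 CPM, and the proximal and distal symbols of each gene overlap.

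**Figure D2:**
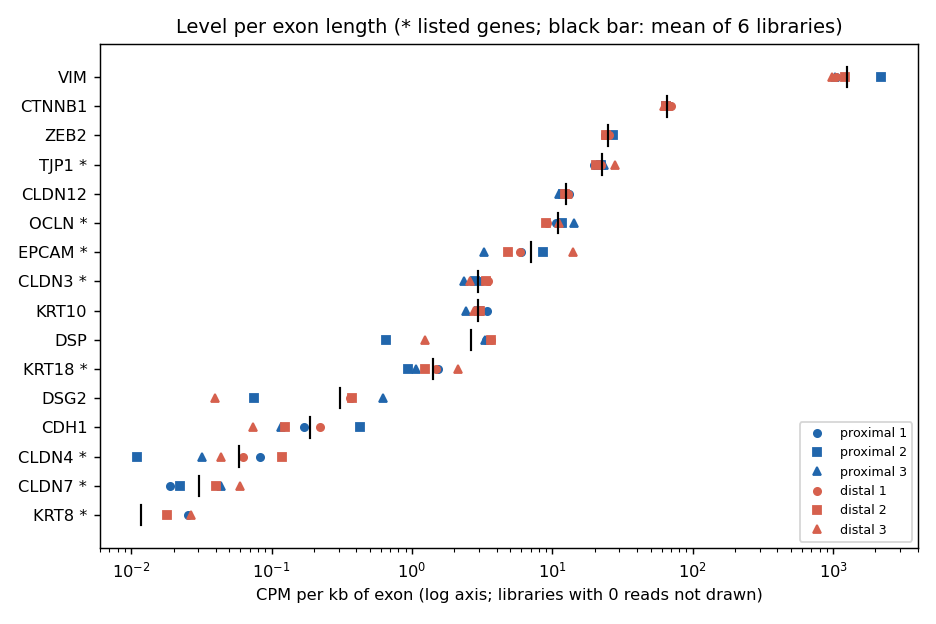
CPM per kilobase of exon (log axis) of the 8 listed genes, marked with an asterisk, and of 8 reference genes, 1 symbol per library and a black bar at the mean of 6 libraries. VIM lies highest at a mean of 1250 CPM per kilobase, TJP1 close to ZEB2, and KRT8 lowest.

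Of the simple keratins with a row, KRT8 had the fewest reads of the matched genes, while KRT18 had more than CLDN4 and CLDN7. KRT8 (type II keratin 8, chromosome 12, 52897191 to 52949860, GRCh38) had 3, 0 and 0 reads in proximal 1 to 3 and 0, 2 and 2 reads in distal 1 to 3. No library had more than 3 reads, the number that a count of 0 still allows, so no fold was computed for KRT8, and an exact two-sided permutation test of its levels gave p = 0.7 where 3 against 3 libraries cannot give less than 0.1. KRT18 (type I keratin 18, chromosome 12, 52948855 to 52952906), the filament partner of KRT8, had 79, 41 and 48 reads in the proximal and 68, 60 and 70 in the distal libraries. Those reads correspond to 3.06, 1.89 and 2.16 CPM (proximal) against 3.00, 2.47 and 4.27 CPM (distal), with distal 3 highest, proximal 2 lowest and the groups overlapping.

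The log2 fold change of KRT18 (distal minus proximal) was 0.44 (SE 0.32, 95% interval -0.28 to 1.17), with an adjusted p of 0.9997 by edgeR's quasi-likelihood test. It was 0.20 without distal 3, 0.67 without proximal 1 and 0.14 without both proximal 3 and distal 3. KRT8 made up 7 of the 373 reads of both keratins, 1.88% (exact Clopper-Pearson 95% interval 0.758% to 3.83%, counting error only). The share was 3.66% in proximal 1, 3.23% in distal 2, 2.78% in distal 3 and 0 elsewhere, where the upper bounds of the same interval were 8.60% in proximal 2, 7.4% in proximal 3 and 5.28% in distal 1. Group means of 1.22% in proximal and 2.00% in distal tumour differed by 0.782 percentage points (exact two-sided permutation p = 1, smallest possible 0.1). The pair of genes lies side by side on chromosome 12 and their annotated ends overlap on opposite strands. GENCODE lists 50 KRT8 and 67 KRT18 pseudogenes, and none has a row in the table. Reads shared between genes or with these copies could be missing from either keratin's count, and the reads' share that this concerns was not tested.

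Of the other keratins, KRT10 alone was above the filter on low counts. Of 38 further keratin symbols 12 matched a row, 9 of these had at most 3 reads in any library, and 1, KRT10 (type I keratin 10, known from the upper layers of the epidermis), was tested. KRT10 had 7.27, 6.42 and 5.16 CPM (proximal) against 6.30, 6.51 and 5.86 CPM (distal). Its levels were alike in all libraries, with a log2 fold change of -0.01 (SE 0.20), and its gene overlaps TMEM99 on the opposite strand, so a part of these reads may be of that gene. The next in level were KRT17, a basal cell keratin, with 11 reads over all libraries, and KRT20, an intestinal keratin, with 6 reads, of which 5 were in distal 3. All 14 keratin rows together took 0.000748% to 0.00111% of the counts of a library, and without KRT10 and KRT18 they held 46 reads in all 6 libraries. VIM (vimentin, the mesenchymal intermediate filament) took 0.184% to 0.407% of the counts. Its level was 1957, 4108 and 1932 CPM (proximal) against 1945, 2270 and 1820 CPM (distal), which made proximal 2 the highest library, with a log2 fold change of -0.41 (SE 0.33, adjusted p = 0.9997 by edgeR). Per kilobase VIM was at percentile 99.9 of the table.

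EPCAM (epithelial cell adhesion molecule, a membrane glycoprotein that joins like cells and binds claudin-7, chromosome 2, 47369311 to 47387020) was the tested gene of the list that varied most. It was read at 11.96, 17.2 and 6.51 CPM (proximal) against 11.85, 9.68 and 28.0 CPM (distal), from 309, 372 and 145 and from 269, 235 and 459 reads. Distal 3 was highest and proximal 3 lowest, so that each group held both a high and a low library. The highest library stood 4.30-fold above the lowest, and the coefficient of variation over the 6 libraries was 53.6%, where counting alone gives 5.69%. Among all genes tested, whose median was 11%, that value was at percentile 95.7. Exact Poisson 95% intervals (counting error only) were 25.5 to 30.7 CPM in distal 3, 15.5 to 19.0 in proximal 2 and 5.50 to 7.66 in proximal 3, apart from each other, while those of proximal 1 (10.7 to 13.4) and distal 1 (10.5 to 13.4) overlapped.

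For EPCAM the proximal mean was 11.88 ± 5.33 CPM and the distal mean 16.5 ± 10.02 CPM (SD, n = 3 per group). On the log2 scale EPCAM differed by 0.47 (SE 0.55, 95% interval -0.91 to 1.85), with an adjusted p of 0.9997 by edgeR's quasi-likelihood test. As folds, the interval of EPCAM ran from 0.532 to 3.60, so an increase above 2-fold in distal tumour lay within it and a decrease of 2-fold did not. Without distal 3 its log2 fold change was -0.14, and without proximal 3 and distal 3 it was -0.43 (adjusted p 0.9991), so the direction rests on distal 3. It was 0.17 without proximal 3, 0.83 without proximal 2 and 0.74 without distal 2.

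Transcripts of other tissues also differed between these libraries. ACTA1, skeletal muscle actin, was at 302 CPM in distal 3 and 49.8 CPM in proximal 3, the libraries with the highest and the lowest EPCAM, and at 0.661 to 6.42 CPM elsewhere. The 23 skeletal muscle markers took 0.330% of the counts in distal 3, 0.0743% in proximal 3 and 0.0314% to 0.0343% in the others. In proximal 2, with EPCAM at 17.2 CPM, their share was 0.0333%. The 14 Schwann cell and myelin markers with a row took 0.0261% in proximal 3 and 0.0220% in distal 2, where EPCAM was lowest, and 0.0166% to 0.0188% elsewhere. The most read markers of each list did not differ in this way throughout. MYH1, a muscle myosin, was at 74.0 CPM in proximal 3, 398 in distal 3 and at most 5.82 elsewhere, but TPM2, a tropomyosin, was at 248.9 to 348 CPM, and CNP and PRX, of myelinating cells, were at 83.8 to 91.3 and 41.4 to 50.7 CPM in all libraries. The part of these other cells in the EPCAM values was not tested. In bulk tissue, fewer cells that express a gene and less RNA of it per cell cannot be told apart.

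**Figure D3:**
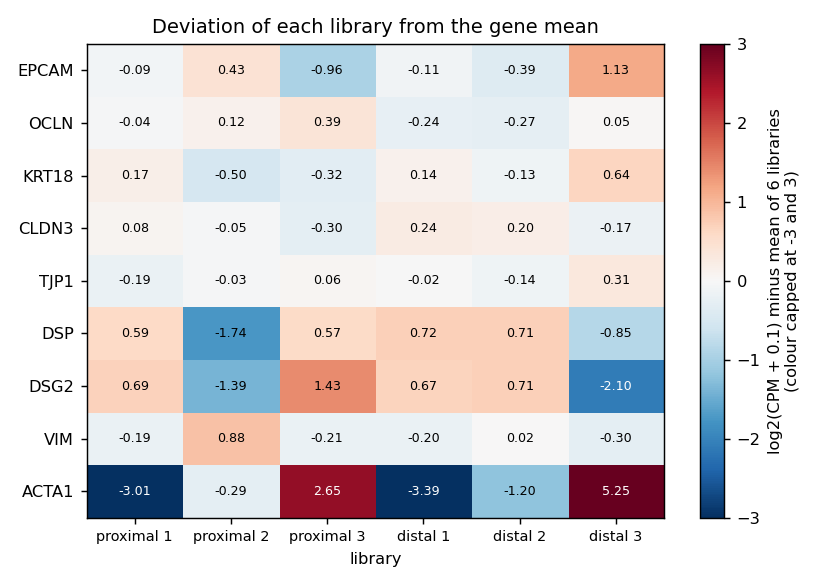
Difference of log2(CPM + 0.1) in each library from the mean of the 6 libraries, for 5 listed genes, 2 desmosome genes, VIM and ACTA1; red is above and blue below the mean, with the colour capped at 3. EPCAM is at 1.13 in distal 3 and at -0.96 in proximal 3, and DSP and DSG2 are below theirs in proximal 2 and distal 3.

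Adherens junction genes and partners of EPCAM were read at uneven levels. CDH1 (E-cadherin, the adhesion receptor of epithelial adherens junctions) had 0.851, 2.12 and 0.584 CPM (proximal) against 1.10, 0.618 and 0.366 CPM (distal). Proximal 2 was its highest and distal 3 its lowest library, and its log2 fold change was -0.74 (SE 0.58, adjusted p = 0.9997). CDH1 was chosen after its values were seen, as were ACTA1, CLDN1, CLDN5, CLDN19, DSP, DSG2, DSC2, ZEB1, SNAI1, LUM, DPT, MFAP5, PI16 and PECAM1. CTNNB1 and CTNNA1 (β-catenin and α-catenin, which bind cadherins on the inner side) were at 491 to 549 and 347 to 375 CPM and AFDN (afadin) at 145 to 163 CPM, with fold changes of -0.01, -0.01 and -0.04 on the log2 scale. CTNND1 (p120-catenin, which holds cadherins at the membrane) was at 3.83 to 7.71 CPM, a log2 fold change of -0.49 (SE 0.26), and FHL2, a partner of the cleaved inner part of EPCAM, at 8.18 to 19.1 CPM, a log2 fold change of -0.55 (SE 0.25). In both CTNND1 and FHL2 the highest library was proximal 2. Of the 18 adherens junction genes and EPCAM partners 14 were tested, 8 were higher and 6 lower in distal, and 0 were called, with a median of 0.01. Without proximal 2, or without distal 2, 4 were higher and 11 lower, with medians of -0.025 and -0.031.

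Claudins divided into those that were read and those that were not. CLDN3 (chromosome 7, 73768997 to 73770270), a barrier-forming claudin of many epithelia, had 3.95, 3.60 and 3.01 CPM (proximal) against 4.41, 4.29 and 3.30 CPM (distal). Libraries of both groups were mixed in this order, with distal 1 and distal 2 highest and proximal 3 lowest. Means were 3.52 ± 0.474 and 4.00 ± 0.608 CPM (SD, n = 3 each), and the log2 fold change was 0.19 (SE 0.25, 95% interval -0.37 to 0.74, adjusted p = 0.9997 by edgeR). The coefficient of variation of CLDN3 over the libraries was 14.7%, beside 11.1% from counting alone. CLDN4 (chromosome 7, 73830996 to 73832690), which lies close to CLDN3 and like it binds the enterotoxin of Clostridium perfringens, had 9, 1 and 3 reads in the proximal and 6, 12 and 3 in the distal libraries. With 13 reads in one group and 21 in the other, the mean of log2(CPM + 0.1) was higher by 0.67 in distal (exact two-sided permutation p = 0.4, smallest possible 0.1), and the groups overlapped. CLDN7 (chromosome 17, 7259903 to 7263213), the claudin that binds EPCAM, had 1, 1 and 2 reads in proximal and 0, 2 and 2 in distal tumour, at or below 3 reads in each. The same exact permutation test gave p = 1 for CLDN7, and its gene overlaps ELP5, a gene with a row of its own, on the opposite strand. The CLDN7 gene also overlaps AC003688.1, a protein-coding gene without a row, on the same strand. Reads shared with these genes could be missing from the CLDN7 count, which was not tested.

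Among 23 further symbols of claudins and claudin domain genes, 15 matched a row and 7 were tested. CLDN12, a claudin that lacks the usual PDZ-binding end, was at 39.6 to 46.9 CPM and CLDN15, a cation-pore claudin, at 9.21 to 16.3 CPM, with log2 fold changes of 0.08 (SE 0.10) and 0.09 (SE 0.22). CLDND1, a more distant relative, was at 95.7 to 121 CPM and had a log2 fold change of 0.10 (SE 0.10). CLDN11, the claudin of myelin sheaths and Sertoli cells, had 3.79, 3.19 and 3.77 CPM (proximal) against 5.46, 3.21 and 10.6 CPM (distal), with distal 3 above the rest and a log2 fold change of 0.83 (SE 0.39, adjusted p = 0.9997 by edgeR). CLDND2, which ranged over 0.180 to 0.462 CPM (proximal) and 0.488 to 0.793 CPM (distal), was the only 1 of the 7 whose groups did not overlap, where 6.28% of all genes tested did not. Its log2 fold change was 1.00 (SE 0.53, adjusted p = 0.9997). CLDN19, of Schwann cells, had 9 reads in all, CLDN5, of endothelium, 4 reads, and CLDN1, of perineurium and skin, 13 reads, of which 10 were in distal 3. Their median log2 fold change was 0.10, 6 of the 7 being higher and 1 lower in distal tumour, and 0 were called. With no filter on low counts 13 of 15 were higher and the median was 0.52, by DESeq2 it was 0.58, without distal 1 it was 0.24, and without proximal 3 and distal 3 it was 0.01 with 4 higher and 3 lower.

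OCLN (occludin, a tight junction protein with 4 membrane spans, chromosome 5, 69492547 to 69558104) was the 1 tested gene of the list with a lower mean in distal tumour. It had 68.95, 77.1 and 93.3 CPM (proximal) against 60.01, 59.04 and 73.4 CPM (distal). The lowest proximal library, proximal 1, was below the highest distal one, distal 3, so the groups overlapped. Means were 79.8 ± 12.4 and 64.2 ± 8.02 CPM (SD, n = 3 each). On the log2 scale OCLN differed by -0.32 (SE 0.13, 95% interval -0.61 to -0.02), with an adjusted p of 0.9997 (unadjusted 0.03695) by edgeR's quasi-likelihood test. It was the only 1 of the 5 tested with an unadjusted p under 0.05, where 1.33% of all genes tested had one, and 0% of them passed after adjustment. Without proximal 3, the highest library, the log2 fold change was -0.19. It was -0.14 without proximal 3 and distal 2, a fit added after the data were seen. Those 2 libraries held the highest shares of Schwann cell and myelin markers. They were also the libraries with the highest OCLN (93.3 CPM) and the lowest (59.04 CPM), so leaving both out narrows the difference whatever their marker shares. The part of Schwann cells in the OCLN values was not tested. Leaving out proximal 1 or distal 3 gave -0.42 each. Leaving out proximal 2, distal 1 or distal 2 gave -0.34, -0.27 and -0.26. GENCODE lists 1 OCLN pseudogene, which could share reads.

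TJP1 (ZO-1, chromosome 15, 29699367 to 29969049) had the lowest coefficient of variation of the 5 tested genes of the list, 12.9% over the 6 libraries. Among all genes tested, whose median was 11%, that value was at percentile 58.8. Its level was 191, 214 and 228 CPM (proximal) against 215, 198 and 271 CPM (distal), with distal 3 highest and proximal 1 lowest. Means were 211 ± 18.5 and 228 ± 38.0 CPM (SD, n = 3 each), and the log2 fold change was 0.11 (SE 0.12, 95% interval -0.16 to 0.38, adjusted p = 0.9997 by edgeR). Without distal 3 it was -0.03, so its sign rests on that library. As folds, the interval of TJP1 ran from 0.896 to 1.30. The 95% interval lay within 2-fold in either direction for 3 of the 5 tested genes (CLDN3, OCLN and TJP1) and for 84% of all genes tested. In proximal 2, the library with the most vimentin, KRT18 (1.89 CPM) and CLDN4 (1 read) were at their lowest, while TJP1, OCLN, CLDN3 and EPCAM lay within their ranges over the other 5 libraries.

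Scaffold and polarity genes of the tight junction were widely read. Of 35 symbols 33 matched, each of them with at least 10 reads over the libraries, and 28 were tested, 13 of them higher and 15 lower in distal tumour, with a median of -0.01 on the log2 scale and 0 called. Without proximal 2 the tally was 16 higher and 13 lower with a median of 0.02. PRKCI (atypical protein kinase C) ranged over 142 to 146 CPM (proximal) and 131 to 138 CPM (distal), PARD3 (the polarity scaffold PAR-3) at 127 to 130 and 114 to 119 CPM, and MPDZ, a multi-PDZ scaffold, at 78.1 to 92.9 and 76.2 to 77.1 CPM. These were the 3 of the 28 whose groups did not overlap, where 6.28% of all genes tested did not, and each was lower in distal, with log2 fold changes of -0.10 (SE 0.07), -0.14 (SE 0.07) and -0.14 (SE 0.09) and an adjusted p of 0.9997 each by edgeR. YBX3 (ZONAB, a transcription factor held by ZO-1) was at 84.0 to 120 CPM with a log2 fold change of 0.09. MARVELD2 (tricellulin, the occludin relative at corners between cells) was at 23.1 to 29.1 CPM and F11R (the adhesion molecule JAM-A) at 38.2 to 60.3 CPM. CGN (cingulin, which joins ZO-1 to actomyosin) was at 30.0 to 49.0 CPM, whereas CRB3, the epithelial Crumbs protein, had 13 reads in all. MARVELD2, F11R, CGN and CRB3 were chosen after their values were seen.

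Desmosomes anchor keratin filaments at the membrane, and 3 of their genes varied widely between libraries of a group. DSP (desmoplakin, the keratin linker) had 32.8, 6.42 and 32.2 CPM (proximal) against 35.8, 35.7 and 12.03 CPM (distal). Proximal 2 and distal 3 were the low libraries, and they were the 2 with the most EPCAM. DSG2, the desmosomal cadherin of simple epithelia, was low in the same libraries with 2.28, 0.462 and 3.86 CPM and 2.25, 2.31 and 0.244 CPM, and so was DSC2 with 0.580, 0.277 and 3.64 CPM and 1.498, 1.77 and 0.0611 CPM. Log2 fold changes were 0.23 (SE 0.80) for DSP, -0.43 (SE 0.91) for DSG2 and -0.39 (SE 1.21) for DSC2. The linkers DST, PLEC and PKP4 were at 270 to 545, 120 to 150 and 67.2 to 77.7 CPM. ITGA6 (integrin α6, of hemidesmosomes) had the lowest p of the list, with 21.8 to 25.4 CPM (proximal) and 29.8 to 30.7 CPM (distal), a log2 fold change of 0.36 (SE 0.10, adjusted p = 0.9997 by edgeR). PERP, a membrane protein of desmosomes, ranged over 0.277 to 2.11 CPM and differed by 1.24 (SE 0.62) on the log2 scale. Of 21 symbols 16 matched and 12 were tested, with 4 higher and 8 lower in distal, a median of -0.06 and 0 called. Without proximal 3 the tally was 7 higher and 5 lower with a median of 0.03, and without proximal 3 and distal 2 it was 8 and 4 with a median of 0.08.

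Transcription and splicing factors that keep an epithelial state were read in part. Of 38 symbols of epithelial regulators and surface proteins 28 matched, 13 of these fell below the filter, 7 of them with no library above 3 reads, and 15 were tested, with 12 higher and 3 lower in distal, a median of 0.30 and 0 called. Over all genes tested, 51.6% were higher and the median was 0.0045. Without distal 3 there were 9 higher and 6 lower and the median was 0.05. TFAP2A (AP-2α) stood at 32.8 CPM in proximal 2 against 72.4 to 92.4 CPM elsewhere, SPINT2, a membrane protease inhibitor, at 57.0 to 71.8 CPM and MUC1, an apical mucin, at 10.8 to 18.9 CPM. Their log2 fold changes were 0.38 (SE 0.36), -0.07 (SE 0.11) and 0.25 (SE 0.22). ESRP2, an epithelial splicing factor, ranged over 0.929 to 1.17 CPM (proximal) and 1.48 to 2.02 CPM (distal) without overlap, a log2 fold change of 0.61 (SE 0.35, adjusted p = 0.9997 by edgeR), and LLGL2, a polarity protein, at 5.82 to 6.47 and 6.61 to 9.28 CPM, a log2 fold change of 0.30 (SE 0.20). GRHL1, a grainyhead factor chosen after its values were seen, also had groups that did not overlap, but in the other direction, at 9.16 to 10.2 against 8.69 to 9.03 CPM (log2 fold change -0.13, SE 0.15). These 3 of the 15 stand beside the 6.28% of all genes tested. Of the 19 mesenchymal counterparts 17 were tested, 11 were higher and 6 lower in distal, and 0 were called, with a median of 0.32. Without distal 3, 7 were higher and 10 lower and the median was -0.02. Among them TWIST1 ranged over 0.271 to 0.539 CPM (proximal) and 0.577 to 0.705 CPM (distal), and the neuronal filaments INA and NEFL were at 24.4 to 46.5 and 54.7 to 119 CPM.

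**Figure D4:**
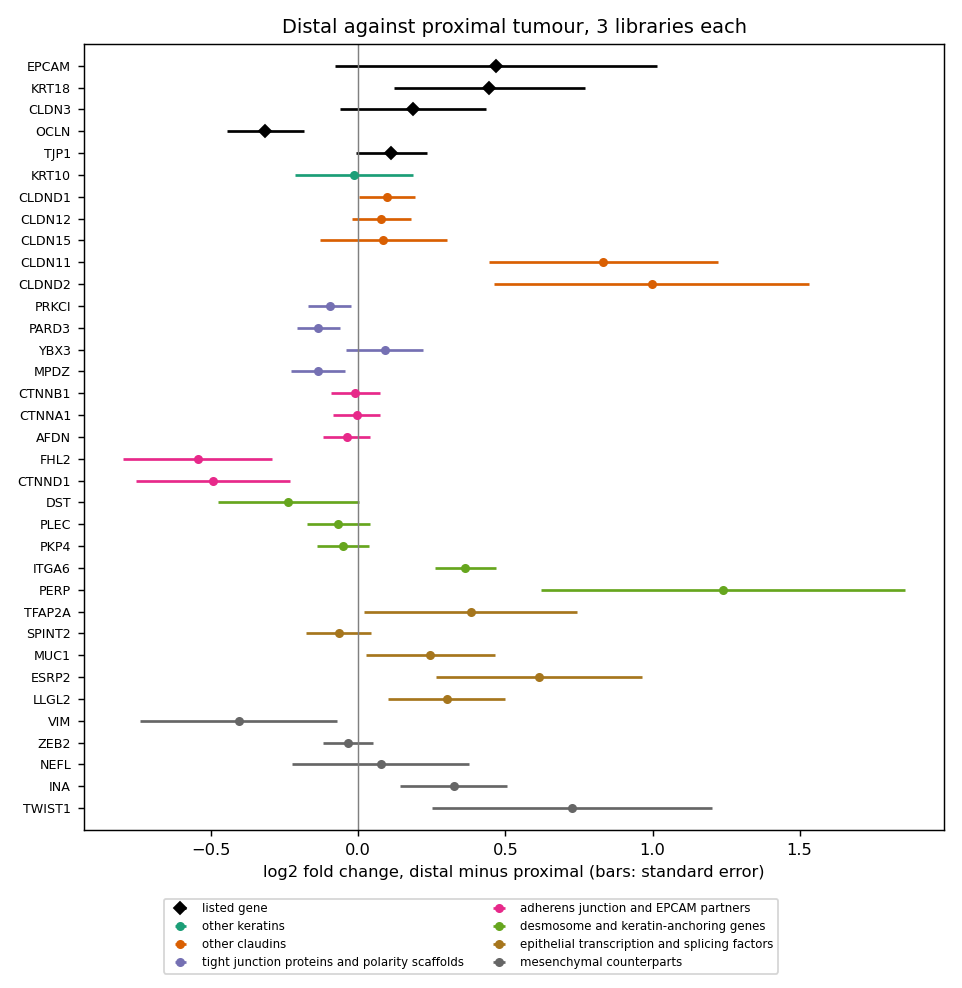
Log2 fold change, distal minus proximal, with its standard error for the 5 tested listed genes (black) and for genes of 7 wider lists (colours). OCLN at -0.32 is the lowest black symbol and EPCAM at 0.47 the highest, and none of the genes shown passed the test.

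Repressors of the epithelial programme bind the E-box CACCTG, among them ZEB2, ZEB1 and SNAI1. ZEB2 was read at 319 to 364 CPM in all 6 libraries, ZEB1 at 1.25 to 7.94 CPM and SNAI1 at 2.28 to 4.37 CPM. Start-site windows of RefSeq (GRCh38.p14), from 250 bases before to 50 after each start, were held for 6 of the 8 matched genes and searched for CACCTG on both strands (CAGGTG on the other). Of all 35116 windows 20.6% held it, and of the 11 windows of the listed genes 5 did. CLDN7, OCLN, CLDN3 and TJP1 had a match in at least 1 window, and CLDN4 and KRT8 had none in theirs. The only KRT8 window (52926420 to 52926719, minus strand) lies inside the gene's span and not at its 5′ end at 52949860. Other start sites of KRT8 were therefore not searched. The matches found are shown since they stand beside genes read at very different levels, from CLDN7 at 8 reads in all libraries to TJP1 at 28796. Each line gives the gene's strand 5′ to 3′ with the motif in capitals. Positions are counted from the start site of the window, with negative positions before it.
CLDN7, chr17:7262635-7262664, minus strand, position -174: tttcttcctcctCACCTGggcaaggagggg
CLDN7, chr17:7262596-7262625, minus strand, position -135: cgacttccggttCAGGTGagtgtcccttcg
CLDN7, chr17:7262481-7262510, minus strand, position -20: cctacatatactCAGGTGcgccccacctgt
CLDN7, chr17:7262470-7262499, minus strand, position -9: tcaggtgcgcccCACCTGtccgcccgcacc
CLDN7, chr17:7262456-7262485, minus strand, position 6: cctgtccgcccgCACCTGctggctcacctc
OCLN, chr5:69492502-69492531, plus strand, position -33: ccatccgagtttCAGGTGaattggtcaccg
OCLN, chr5:69492645-69492674, plus strand, position -133: tctaggacgcagCAGGTGggactcgcggcg
OCLN, chr5:69492813-69492839, plus strand, position 36: tcggtgcggcgtCAGGTGcgcccgcca
CLDN3, chr7:73770221-73770246, minus strand, position 37: caaagccacaggCAGGTGcaggcgca
TJP1, chr15:29969120-29969149, minus strand, position -88: gcggccggcgcgCAGGTGgcccggcctcgc
The last 3 CLDN7 stretches overlap, and the first OCLN match belongs to another start site than the others. The 5 matches of CLDN7 lay in 1 window, and 33 of all windows (0.094%) held 5 or more. CLDN7 has another window with none, and the other windows of TJP1 have none. A match is a stretch of letters and not a measured binding site, and no binding was measured here.

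No listed gene passed the test between proximal and distal tumour. Of the 5 tested, 4 had a higher and 1 a lower mean in distal, the median was 0.19 on the log2 scale, 0 were called and 0 had groups that did not overlap. Of the 13382 genes tested 178 had an unadjusted p under 0.05 and edgeR called 0, while DESeq2 called 1 gene, EDIL3, which is in none of the lists, and limma-voom 0. The markers of small cell and neuroendocrine identity took 0.0299% to 0.0345% of the counts, but 23648 of their 40956 reads were of YAP1, which marks a subtype low in neuroendocrine genes, and 8033 of SYP (synaptophysin). YAP1 was at 167 to 187 CPM and SYP at 56.9 to 63.9 CPM. NEUROD1, a neuroendocrine subtype factor named after its values were seen, was at 0.0462 to 6.47 CPM and highest in distal 3. Among markers of other cells, those of keratinocytes, endothelium, leukocytes and adipocytes had low counts, and those of fibroblasts did not. Reads were aligned to GRCh38 and the host species is not given, so these shares cannot show how many host cells were present. Those of keratinocytes took 0.000594% to 0.000762% of the counts, most of them KRT10, with SFN at 0.122 to 0.404 CPM. Endothelial markers took 0.000391% to 0.000897%, with EGFL7 at 2.83 to 5.62 CPM, KDR at 0.116 to 0.794 CPM and PECAM1 at 0 in all libraries but proximal 2 (0.0462 CPM), leukocyte markers (LYZ at 0.232 to 4.09 CPM, CD14 at 0.244 to 0.865 CPM) 0.000172% to 0.000644% and adipocyte markers (CFD at 1.37 to 2.54 CPM, PLIN1 at 0.232 to 0.618 CPM) 0.000201% to 0.000302%. Perineurial markers took 0.00430% to 0.00760%, with SLC2A1 at 27.4 to 33.1 and CRABP2 at 11.2 to 30.2 CPM, and fibroblast markers 0.460% to 0.607%, nearly all of it COL3A1, DCN and LUM, while DPT, MFAP5 and PI16 were at 0.116 CPM or below in every library.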

How the data were processed

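Poly(A) RNA of integrity above 7 went into TruSeq libraries for a NovaSeq X Plus, per the labels' protocols. The deposited table holds unnormalized counts per gene symbol. The submitters' processing notes name GRCh38, DESeq2, featureCounts 2.0.1, STAR 2.7.3a, Trimmomatic 0.39 and bcl2fastq. No source used here gives the annotation, the strand setting or what was done with host reads. Host reads that align to human genes may be counted, and other host reads may be missed.

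In R 4.3.3, edgeR 4.0.16 filtered low genes, scaled libraries by TMM and tested distal against proximal (robust quasi-likelihood fit, Benjamini-Hochberg over all genes tested, 0.05). CPM use TMM-scaled totals. Each SE was derived from the log2 fold change and its F statistic. Genes below the filter had an exact permutation test on log2(CPM + 0.1) (scipy 1.17.1). KRT8 had libraries at 0, so its share of KRT8 and KRT18 reads replaced the planned log2 ratio. Alternatives were RLE scaling, library totals alone, other filters, DESeq2 1.42.0, limma-voom (3.58.1), the replicate number as a block, pseudocounts of 0.5 and 1, and libraries left out. The fit without proximal 3 and distal 2 was added after the data were seen. Scripts were tested on simulated counts. Named genes were all listed ones and, from each wider list, the 3 with the highest mean CPM and the 2 with the lowest p, and from marker lists the 2 with the highest mean CPM. Genes named beyond this rule are said to be chosen after their values were seen. Members and lists were chosen with earlier results of these data known.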

Additional observations from a re-analysis of the deposited data

How the results depend on the processing

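edgeR called 0 genes in the fit as reported, DESeq2 called 1 and edgeR without distal replicate 1 called 1, EDIL3 in both. With libraries left out in turn the count ran from 0 to 1. The other alternatives called 0, and in the wider lists every alternative called 0. KRT18, CLDN3 and OCLN kept their direction under all 15 alternatives, KRT18 from 0.14 to 0.67, CLDN3 from 0.03 to 0.30 and OCLN from -0.42 to -0.14 on the log2 scale. EPCAM turned to -0.14 without distal replicate 3 and to -0.43 without proximal 3 and distal 3, so its range with libraries left out was -0.43 to 0.83. TJP1 turned to -0.029 without distal replicate 3 and reached 0.26 without proximal 3 and distal 2. The difference in KRT8 share turned to -0.22 percentage points without proximal 3 and distal 3, and ran from 0.17 to 2.0 with single libraries left out. The cause was not tested. CLDN4 stayed higher in distal in all 8 of its alternatives (0.16 to 1.09). With the replicate number as a block, 0 genes were called, and EPCAM was at 0.38, KRT18 at 0.44, CLDN3 at 0.18, OCLN at -0.31 and TJP1 at 0.10. In that fit 286 genes had an unadjusted p under 0.05, beside 178 without the block. The unadjusted p of OCLN by edgeR's quasi-likelihood test was 0.007022 with the block and 0.03695 without, and it passed adjustment in neither. Deviations of same-numbered libraries correlated at 0.622, -0.106 and 0.409 across 9585 genes, beside highest values of 0.238, 0.068 and -0.121 between each proximal library and the other distal numbers. Proximal 1 and 3 thus correlated best with their own number and proximal 2 did not, so the numbers were not taken to pair the libraries. At these depths a gene read at 3 counts or fewer, as KRT8 and CLDN7 were, cannot show a difference between the groups.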
